A study of Mus musculus with 6 samples.

Results

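MC38 is a cell line from a mouse colon adenocarcinoma, and its comparison sets the array titled sh Spp1 against the array titled sh Ctrl. These are 2 of the 6 arrays of a study that measured total RNA of 3 mouse cancer cell lines, the others being LLC (Lewis lung carcinoma) and AE17 (mesothelioma), on 1-colour whole-transcript arrays. The sh Spp1 array carries the genotype label Spp1 depletion, a short hairpin RNA (shRNA) against the osteopontin gene. The sh Ctrl array carries the genotype label wild type, and the series title speaks of wild-type cells, so whether the control cells held a control hairpin was not settled by the labels. Both cultures grew in DMEM with fetal bovine serum, and no other treatment is named. The number of hairpins, and whether the cells were a clone or a pool, are not given in the sources used here.

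With 1 array a side, every MC38 difference below has no replicate check, and no p-value can be given for it. Intensities were brought to the log2 scale and quantile normalised over the 6 arrays, and each gene was described by its log2 ratio, sh Spp1 over sh Ctrl. A ratio of 1 log2 unit is 2-fold. A gene was compared when its brightest probe set reached the brightness floor, the 30th percentile of all probe sets at a log2 intensity of 4.49, on at least 1 of both MC38 arrays. That held for 17014 of the 22180 genes named by a probe set with 1 gene symbol. Microarray intensity is not a level per length of transcript, so no gene is set against another by its level.

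Osteopontin is a secreted phosphoprotein that signals through integrins and CD44, and an intracellular form is known from immune cells. Type I interferons bind the receptor Ifnar1 and Ifnar2, whose kinases Jak1 and Tyk2 activate STAT factors. Stat2 and Irf9 belong to the complex ISGF3, which binds the interferon-stimulated response element (ISRE) in the promoters of antiviral genes. Irf7 is itself a target and amplifies the response.

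The targeted gene could not be checked, because 0 of the probe sets used here name Spp1, and each direction rests on the array labels. Of 24 colon and simple epithelial markers with a probe set, 5 lay under the floor on both arrays and 19 were compared. The 5 were Epcam and the absorptive-cell genes Fabp1, Fabp2, Car1 and Slc26a3. Among those compared, the colon transcription factor Cdx2 had a log2 intensity of 5.03 on the sh Spp1 array and 5.18 on the sh Ctrl array. The epithelial cadherin Cdh1 had 5.58 and 5.53, and the brush-border gene Vil1 had 4.71 and 4.66. The intermediate filament gene Vim, of mesenchymal cells, had 13.08 and 13.23, and the matrix proteoglycan gene Dcn 10.95 and 11.31. Of 12 fibroblast markers, only Lum and Postn lay under the floor on both arrays, and 10 were compared. Leukocyte genes were near or under the floor, with Ptprc, Adgre1, Cd3e and Ms4a1 under it on both arrays. The 2 arrays had median deposited intensities of 43.7 on the sh Spp1 array and 49.4 on the sh Ctrl array, and correlated at r = 0.98 over 41345 probe sets, which are not independent replicates.

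Of the compared genes, 150 (0.882%) were higher by at least 1 log2 unit on the sh Spp1 array, 290 (1.7%) were lower, and 440 (2.59%) lay past that size in either direction. The median log2 ratio of all genes was 0.02. The split depended on the scaling: of the genes past the size, 34.1% were higher here. That share was 55.6% without scaling between arrays and 80.6% when each array was centred on its median. Higher genes then numbered 380 of 17906 and 857 of 17054, and lower genes 304 and 206. List counts under those scalings are to be read beside these. At 2 log2 units there were 6 higher genes and 66 lower ones. The genes nearest the size were Igkj1 at -1.002 inside and Mir15a at -0.9995 outside among the lower ones, and Flvcr1 at 1.0019 inside and Piezo1 at 0.9964 outside among the higher ones. Olfactory and vomeronasal receptors, which such cells are not known to use, gave 9 of 222 past the size, or 4.05%. That share is above the 2.59% of all genes, so a count near it is not read as a result below.

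Interferon genes stood at the low end. The set holds 195 compared genes of 9 interferon lists and of matching symbol stems such as Ifit and Gbp. Of these, 82 (42.1%) were lower by at least 1 log2 unit on the sh Spp1 array and 0 were higher, beside 1.7% and 0.882% of all genes. They made up 28.3% of all 290 lower genes, and 45 of the 66 genes lower by at least 2 log2 units, or 68.2%. The remaining 208 lower genes and all 150 higher genes lay outside. In the plot of gene levels on both arrays the interferon genes form a cloud below the diagonal, over most of the brightness range.

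**Figure D1:**
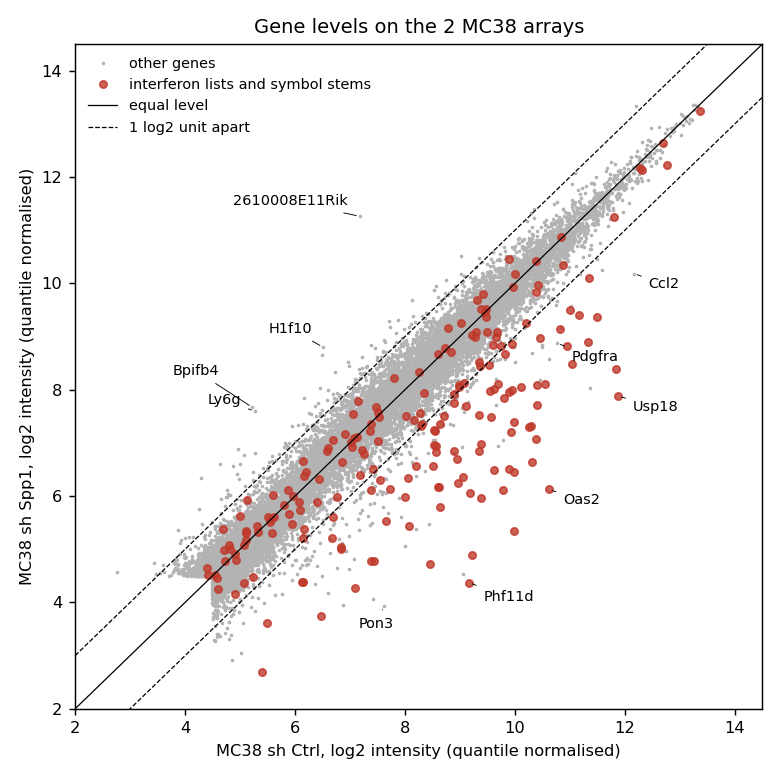
Each point is 1 of 17014 genes, with its log2 intensity on the MC38 sh Spp1 array (vertical axis) and the MC38 sh Ctrl array (horizontal axis), 1 array each. Of the 195 interferon genes (large points) 82 lie below the lower dashed line, which marks 1 log2 unit, and 0 above the upper one.

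The promoters of the lower interferon genes held the core of the ISRE more often than promoters at large. The core searched was a pair of GAAA runs with any 2 bases between them, on either strand, in RefSeq promoter windows of assembly GRCm38.p6 that run from 250 bases before to 50 bases after each gene start. It was found in 37 of 62 lower interferon genes with a window (59.7%) and in 19 of 94 interferon genes that were not lower by that size (20.2%). Among genes outside the lists it was in 9 of 137 lower genes (6.57%) and 2 of 104 higher genes (1.92%). Of all compared genes with a window 3.42% held it, and of all 27025 genes with a window 3.99%. The gamma-activated site, searched as TTCNNNGAA, which can share bases with the ISRE core, was in 10 of the 62 (16.1%), 22 of the 94 (23.4%), 17 of the 137 (12.4%) and 3 of the 104 (2.88%), beside 8.42% of compared genes and 9.55% of all genes with a window. A match is a description of the letters, not a proven site. The lists were made of genes with known interferon links, and those not lower include receptors, kinases and the interferon genes themselves. How far the make-up of the lists sets these shares was not tested.

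Shown are 5 windows that hold the core, 5′ to 3′ on the strand of the gene, with the bases of each match, or of overlapping matches, in capitals. Isg15 (chr4:156200769-156201068, minus strand) has 3 overlapping matches, and Ifit1 (chr19:34640639-34640938, plus strand) has 2 that lie apart. Oas1g (chr5:120887564-120887863, minus strand) and Gbp3 (chr3:142559794-142560093, plus strand, 1 of its RefSeq windows) have 2 overlapping matches each. Cxcl10 (chr5:92348840-92349139, minus strand) is a chemokine gene outside the lists with 1 match.
Isg15: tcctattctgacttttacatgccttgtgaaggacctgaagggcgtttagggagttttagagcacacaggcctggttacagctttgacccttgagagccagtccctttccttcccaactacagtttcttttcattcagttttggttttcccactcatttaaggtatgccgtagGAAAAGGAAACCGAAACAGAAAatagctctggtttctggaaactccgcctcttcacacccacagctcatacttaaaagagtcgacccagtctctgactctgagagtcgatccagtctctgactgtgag
Ifit1: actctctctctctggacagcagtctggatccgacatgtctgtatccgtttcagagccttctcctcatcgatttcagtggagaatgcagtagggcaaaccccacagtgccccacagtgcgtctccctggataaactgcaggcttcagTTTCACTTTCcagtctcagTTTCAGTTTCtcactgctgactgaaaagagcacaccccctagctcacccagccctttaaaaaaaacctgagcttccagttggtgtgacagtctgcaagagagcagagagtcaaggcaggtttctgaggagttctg
Oas1g: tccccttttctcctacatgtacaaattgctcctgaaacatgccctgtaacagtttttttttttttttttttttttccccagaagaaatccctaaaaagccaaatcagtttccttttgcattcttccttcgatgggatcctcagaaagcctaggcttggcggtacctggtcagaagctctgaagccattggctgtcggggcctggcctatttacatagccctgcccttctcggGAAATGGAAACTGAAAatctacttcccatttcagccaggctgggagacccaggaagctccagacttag
Gbp3: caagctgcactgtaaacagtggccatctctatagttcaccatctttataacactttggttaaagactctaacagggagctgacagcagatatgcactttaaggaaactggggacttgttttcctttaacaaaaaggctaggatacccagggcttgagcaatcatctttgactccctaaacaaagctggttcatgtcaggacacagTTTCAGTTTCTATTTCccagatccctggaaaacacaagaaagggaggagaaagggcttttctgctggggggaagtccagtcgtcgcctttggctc
Cxcl10: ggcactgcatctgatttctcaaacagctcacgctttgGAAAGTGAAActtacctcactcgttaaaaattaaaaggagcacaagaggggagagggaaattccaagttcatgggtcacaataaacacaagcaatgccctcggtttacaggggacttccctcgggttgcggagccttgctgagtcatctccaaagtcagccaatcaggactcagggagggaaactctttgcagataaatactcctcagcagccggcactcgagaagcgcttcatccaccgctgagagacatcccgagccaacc
The window of Irf7 on chromosome 7 holds no match, which says only that these letters are not in it.

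The oligoadenylate synthetases, which make a short nucleotide messenger when they meet double-stranded RNA, gave 7 of 8 compared members lower by at least 1 log2 unit. The median log2 ratio was -3.21, a 9.26-fold difference, where the median of all genes was 0.02. Oas2 had a log2 intensity of 6.12 on the sh Spp1 array, against 10.61 on the sh Ctrl array, a ratio of -4.49. Oas3 had 6.64 against 10.31, and Oas1g had 7.07 against 10.38. The relatives Oasl2 and Oasl1, which are not all active enzymes, had 8.39 against 11.83 and 8.10 against 10.40. Oas1c was lower by less, at 5.61 against 6.69, and Oas1e, with 4.65 on the sh Spp1 array and 4.39 on the sh Ctrl array, was near the floor on both. The Oas1 genes are close copies, and how far their probe sets share signal was not tested. Oas1a was not analysed here.

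The interferon-inducible GTPases, which attack the vacuoles of intracellular parasites and bacteria, gave 12 of 14 members lower by that size, and all 14 below 0. Their median was -2.53, or 5.77-fold. Iigp1 had 4.89 on the sh Spp1 array, against 9.21 on the sh Ctrl array, the lowest ratio of the list at -4.32. Gbp3 had 4.73 against 8.46, Gbp7 had 6.50 against 9.62, and Irgm2 had 6.25 against 8.97. Mx2 had 4.78 against 7.44. Gbp5 had 3.74 on the sh Spp1 array, which is under the floor and makes its size approximate, against 6.47 on the sh Ctrl array. Mx1 and Gbp2b, at -0.75 each, were dim on both arrays, and Gbp2, Ifi47, Tgtp1 and Tgtp2 were not analysed here. Predicted genes with GTPase names fell outside the lists by symbol, and were chosen after their values were seen. Gm4951, for which RefSeq gives the synonym Ifgga2, had 4.54 on the sh Spp1 array, against 9.06 on the sh Ctrl array. Gm12250, with the synonym Irgb10, had 4.35 on the sh Spp1 array, under the floor, against 6.36.

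The IFIT proteins bind foreign RNA, and ISG15 is a ubiquitin-like modifier with its own enzymes. In this group 9 of 10 members were lower by at least 1 log2 unit and all 10 lay below 0, with a median of -1.73, or 3.31-fold. Usp18, which removes ISG15 and dampens the interferon receptor, had 7.88 on the sh Spp1 array, against 11.88 on the sh Ctrl array, the lowest ratio of the group. The ISG15 ligase Herc6, the conjugating enzyme Ube2l6 and the activating enzyme Uba7 had ratios of -2.06, -1.95 and -1.71. Isg15 itself had 6.13 on the sh Spp1 array, against 7.73 on the sh Ctrl array. Ifit1 and Ifit2 had 9.15 against 10.83 and 7.68 against 9.11. Ifit3 was the exception, at 6.65 against 6.85. Its close copy Ifit3b had 4.39 on the sh Spp1 array, under the floor, against 6.13, and whether the probe sets of both share signal was not tested. Of the 9 members above the floor on both arrays, 8 were lower by at least 1 log2 unit.

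Among 46 other antiviral effectors, 25 were lower by at least 1 log2 unit and 40 lay below 0, with a median of -1.16. Phf11d, of a PHD-finger family, had the lowest ratio of all 17014 genes, with 4.37 on the sh Spp1 array, which is under the floor, against 9.16 on the sh Ctrl array. The helicase-related Ddx60 had 5.97 against 9.38, and Rtp4, a chaperone that also acts on flavivirus replication, had 7.31 against 10.30. Rsad2, the viperin that makes a chain-terminating nucleotide, had 8.89 against 11.33, and its neighbour Cmpk2, a mitochondrial nucleotide kinase, had 7.71 against 10.40. The kinase Eif2ak2, which halts translation on double-stranded RNA, had 8.11 against 9.69, and Bst2, which tethers budding viruses, 8.01 against 9.61. The poly-ADP-ribose polymerases and the Schlafen genes differed within themselves. Parp14, Parp9, Parp11 and Parp12 had ratios of -2.50, -1.94, -1.57 and -1.24, and Slfn2 and Slfn8 had -2.63 and -2.05, while Slfn3 had -0.97 and Slfn1 lay at 5.32 on both arrays. Members that block viral entry differed as well: Ifitm3 had -0.55, Ifitm2 0.25 and Ifitm1 0.80. Epsti1, at 0.63, and Zc3hav1, at 0.17, also lay above 0.

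Nuclear sensors and TRIM proteins gave 14 of 18 members lower by at least 1 log2 unit, with a median of -2.18. Ifi207, Ifi209 and Ifi213 lay under the floor on the sh Spp1 array, and of the 15 members above it on both arrays 11 were lower, with a median of -2.12. Ifi205 had 5.34 on the sh Spp1 array, against 9.98 on the sh Ctrl array, and Ifi204, a DNA-binding protein of the same cluster, had 6.46 against 9.98. The nuclear body protein Sp100 had 8.10 against 10.55, and all 4 of its probe sets above the floor lay between -3.10 and -2.18. Trim30a and Trim12a had 5.79 against 8.64 and 6.16 against 8.60. Trim25, a ubiquitin ligase of the RIG-I pathway, had 8.67 against 9.82, and Trim21, an intracellular antibody receptor, 7.23 against 8.55. Pml, Trim56, Trim26 and Trim14 did not reach the size, at -0.67, -0.51, 0.08 and 0.29. The Ifi200 and Trim30 clusters hold near-identical copies, and shared signal between their probe sets was not tested.

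Upstream of these genes the ratios were mostly near 0. Of 23 receptors, kinases and transcription factors, 3 were lower by at least 1 log2 unit. Their median log2 ratio was -0.10. Relative to all genes the sign of that median turned under other scalings. The 3 were transcription factors that are interferon targets themselves, though not every such target in the list reached the size. Irf7 had 6.11 on the sh Spp1 array, against 9.79 on the sh Ctrl array, Stat2 had 7.48 against 9.56, and Irf9 had 7.52 against 9.35. Irf1, a target of both interferon types, had 8.08 against 8.98 and did not reach it. The receptor genes Ifnar1 and Ifnar2 had 9.52 against 9.38 and 9.08 against 9.49, and Ifngr1 had 9.98 against 10.41. Among the kinases, Jak1 had 10.87 on the sh Spp1 array and 10.83 on the sh Ctrl array, and Tyk2 had 7.67 and 7.47. Irf3, which acts before interferon is made, had 7.17 and 6.91. The feedback inhibitor Socs1 had 7.06 and 6.69.

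Sensors of nucleic acid gave 5 of 20 members lower by that size and a median of 0.04, whose sign relative to all genes also turned under other scalings. The RNA sensors Ddx58 (RIG-I), Ifih1 (MDA5) and Dhx58 (LGP2) had 9.37 against 11.49, 8.97 against 10.46 and 7.30 against 10.26. Zbp1, a sensor of Z-form nucleic acid, had 6.51 on the sh Spp1 array, against 9.89 on the sh Ctrl array, and the endosomal receptor Tlr3 had 7.98 against 9.54. The adaptors differed little, with Mavs at 9.52 and 9.48, Sting1 at 10.42 and 10.39, and the kinase Tbk1 at 8.34 and 8.25. Of the DNA sensors, Cgas had 6.91 on the sh Spp1 array and 6.59 on the sh Ctrl array, and Aim2 had 9.16 and 8.79.

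The interferon genes themselves gave 0 of 10 compared members past 1 log2 unit, with ratios from -0.48 for Ifna4 to 0.25 for Ifna14. Ifnb1 and 8 further interferon genes lay under the floor on both arrays and were not compared. The type II gene Ifng had 5.09 on the sh Spp1 array and 5.07 on the sh Ctrl array. For the genes under the floor a difference was not detectable, which does not show that there was none.

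Genes that load MHC class I, the molecules that show peptides to CD8 T cells, differed less than the antiviral groups. Of 24 members, 5 were lower by at least 1 log2 unit and 21 lay below 0, with a median of -0.51, and 2 were lower with centred arrays. The peptide transporter Tap1 had 7.96 on the sh Spp1 array, against 9.88 on the sh Ctrl array, while its partner Tap2 had 6.92 against 7.03. The immunoproteasome subunits Psmb9, Psmb8 and Psmb10 had ratios of -1.24, -1.14 and -0.96. Among non-classical heavy chains, H2-T24 had 5.99 against 7.99 and H2-T23 had 7.24 against 8.54. The classical chain H2-K1 had 11.24 against 11.79 and the shared light chain B2m 13.23 against 13.36, both bright on each array. H2-D1 was not analysed here. The class II list, 7 compared genes with Ciita at -0.08, gave 0 members past the size.

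**Figure D2:**
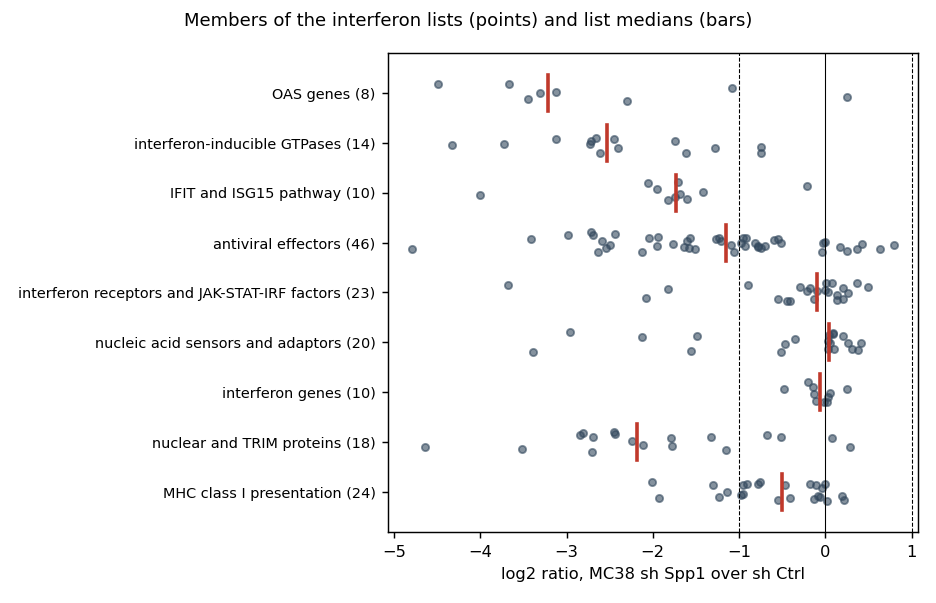
Log2 ratios, MC38 sh Spp1 over sh Ctrl, of the members of 9 interferon lists (points, 1 gene each, number compared in brackets) with the list median (bar) and dashed lines at 1 log2 unit. The median is -3.21 for the OAS genes and -2.53 for the GTPases, against -0.10 for receptors and signalling factors and -0.06 for the interferon genes.

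Outside the interferon lists, the 208 lower and 150 higher genes of 16819 (1.24% and 0.892%) were spread over many functions. Of the 208, 40 lay under the floor on the sh Spp1 array, and of the 150, 15 lay under it on the sh Ctrl array, so the sizes of these ratios are approximate. By symbol, 15 of 214 families with at least 10 genes had 3 or more members past the size in a direction. Beside the interferon-linked members of Parp, Phf and Trim these were chemokines (Ccl, Cxcl), interleukins and their receptors (Il), metalloproteinases (Mmp), semaphorins (Sema) and solute carriers (Slc), and large families such as zinc fingers (Zfp) and transmembrane proteins (Tmem), whose shares of 1.80% and 1.90% are under the 2.59% of all genes.

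Several chemokines that draw monocytes and T cells had lower levels with the hairpin against Spp1. Of 14 CC chemokines, 3 were lower by at least 1 log2 unit and 0 higher, beside 1.7% and 0.882% of all genes. With centred arrays 2 were lower. The list's median was 0.05, and its sign relative to all genes turned under other scalings. Ccl2, the main monocyte chemoattractant, had a log2 intensity of 10.18 on the sh Spp1 array, against 12.16 on the sh Ctrl array. Ccl7, a further ligand of the receptor Ccr2, had 6.94 against 9.69, and Ccl5, which draws T cells, had 9.57 against 11.02. Ccl5 did not stay past the size under every scaling and probe set alternative. Ccl9 had 8.13 on the sh Spp1 array and 7.65 on the sh Ctrl array. Of 15 CXC chemokines and Cx3cl1, 3 were lower and 0 higher. Without scaling between arrays 4 were lower and 1 higher, and with centred arrays 3 were lower and 1 higher. Cxcl10, a ligand of Cxcr3 and an interferon target, had 8.03 against 11.37, a 10.1-fold difference, and its relatives Cxcl11 and Cxcl9 were dim, at 4.55 against 5.52 and 4.58 against 4.97. Cxcl16, a membrane-bound chemokine, had 6.48 against 8.37, and the neutrophil attractant Cxcl1 had 5.58 against 7.15. Cx3cl1 had 9.66 on the sh Spp1 array and 8.93 on the sh Ctrl array.

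Cytokines and their receptors gave few members past the size, among them Il15 and its receptor chain. Il15, which maintains natural killer and memory T cells, had 5.46 on the sh Spp1 array, against 7.36 on the sh Ctrl array, and Il15ra, the chain that presents it, had 5.89 against 7.08. Both are known interferon targets. Il18rap, a chain of the interleukin-18 receptor, had 6.62 against 7.92. Of 24 cytokines, Il15 alone was past the size, beside 2.59% of all genes. Csf1, the macrophage growth factor, had the highest ratio of that list, with 11.10 against 10.55. Among surface ligands of immune recognition, the death receptor Fas had 4.17, under the floor, against 5.76, the adhesion receptor Vcam1 had 10.18 against 11.18, and the checkpoint ligand Cd274 had 6.64 against 7.09. Nfkbia, the inhibitor and target of NF-kB, had 7.87 against 8.94, but the 22 members of that list had a median of -0.12 and 0 were higher by the size. The complement gene C2 had 6.81 against 7.85, and C1s1 a ratio of -1.44 with a sh Spp1 level under the floor. Of the cell death genes, Casp4, an inflammatory caspase, had 8.02 against 9.04. Gsdmd, the pore-forming gasdermin, had 7.82 against 8.89, while its other probe set above the floor had a ratio of 0.0043.

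Other genes with known interferon links were outside the lists and chosen after their values were seen. Rnf213, a large ubiquitin ligase, had 10.25 on the sh Spp1 array, against 11.59 on the sh Ctrl array, and Samd9l, an antiviral factor, had 6.09 against 7.54. Trafd1, a negative regulator of innate signalling named by rule among the lowest outside genes, had 7.71 against 9.66. Acod1, which makes itaconate, had 4.93 against 6.63.

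Proteases that cut the extracellular matrix were lower in part. Of 26 metalloproteinases and inhibitors, 4 were lower by at least 1 log2 unit and 0 were higher, beside 1.7% and 0.882% of all genes. The list's median was -0.20. Each other scaling left 2 lower, and 1 was higher without scaling between arrays and with centred arrays. Mmp9, a gelatinase that also cleaves osteopontin, had 6.81 on the sh Spp1 array, against 8.89 on the sh Ctrl array, or 4.24-fold. The other gelatinase, Mmp2, had 10.46 against 11.50, the collagenase Mmp13 had 4.69 against 6.40, and the stromelysin Mmp10 had 7.75 against 8.75. Mmp2 and Mmp10 did not stay past the size under every scaling. Mmp14, the membrane enzyme that activates Mmp2, ran the other way, at 10.69 against 9.95, and Mmp3 had 6.01 against 5.58. Receptors of osteopontin differed little: Cd44 had 8.64 against 9.18, Itgb3 7.71 against 8.41, Itgav 11.03 against 10.76 and Itgb1 10.82 against 11.07. Of 31 collagens and crosslinking enzymes 1 was past the size, beside 2.59% of all genes. It was Col8a1, at 8.85 against 10.48. With centred arrays 4 more were higher, where 857 of all 17054 genes were. The basement membrane chains Col4a1 and Col4a2 had 8.07 against 7.34 and 8.29 against 7.68.

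Growth factor genes differed in both directions. Of 34 ligands and receptors of the PDGF, FGF and related systems, 4 were lower by at least 1 log2 unit and 1 was higher. Of all genes, 1.7% were lower and 0.882% higher. The list's median was -0.16, and 2 of its members were lower without scaling between arrays and with centred arrays. Pdgfra, a receptor tyrosine kinase of mesenchymal cells, had 8.87 on the sh Spp1 array, against 10.76 on the sh Ctrl array, and its ligand gene Pdgfc had 7.41 against 8.66. Fgf7 and Hgf, factors that mesenchymal cells send to epithelium, had 8.81 against 9.99 and 4.80 against 6.28. Pdgfb was higher, at 7.75 on the sh Spp1 array against 6.41 on the sh Ctrl array. Of the epidermal growth factor family, Btc and Nrg1, chosen after their values were seen, had 5.12 against 6.85 and 7.19 against 8.32. Bmp2 had 6.79 against 7.79 and Tgfbi, an adhesion protein induced by TGF-beta, 8.29 against 7.35, in a list of 30 whose median was -0.17.

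All 10 compared fibroblast markers lay below 0, with a median of -0.55, and their summed intensity was 3825 on the sh Spp1 array and 6367 on the sh Ctrl array. Their part in the growth factor and matrix values was not tested, and Pdgfra, Col1a1 and Col3a1 stand in both kinds of list. Lum and Postn, the other 2 of the 12 markers, were under the floor on both arrays. Pdgfrb had 8.17 against 8.85, Col1a1 8.70 against 9.35 and Thy1 5.10 against 5.55. In this culture of 1 cell line, fewer cells of a type and less RNA per cell cannot be told apart. Colon and simple epithelial markers gave 0 of 19 past the size, and macrophage and leukocyte markers 0 of 15. Their summed intensities were 897 on the sh Spp1 array and 836 on the sh Ctrl array, and 774 and 826. Endothelial and mesothelial markers gave 0 of 9 each, and T and B cell markers 1 of 9, Cd79a, at 6.10 against 4.76. Over all genes 2.59% were past the size. For these lists too, their part in the values was not tested.

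The lowest named genes outside the lists came from several pathways. Pon3, a lactonase of the paraoxonase family, had 3.93 on the sh Spp1 array, against 7.62 on the sh Ctrl array, and Tdrkh, a Tudor protein of the piRNA pathway, had 4.07 against 7.41. Both were under the floor on the sh Spp1 array. Apod, a lipid-binding apolipoprotein, had 5.48 against 8.44, Npr3, the clearance receptor of natriuretic peptides, had 5.06 against 7.99, and Maoa, which oxidises monoamines, had 5.38 against 8.21. The phosphodiesterase Pde3b had 3.96, under the floor, against 6.87. Cth, which makes cysteine from cystathionine, had 4.63 against 6.98, and Cacna1c, a pore subunit of L-type calcium channels, had 5.68 against 7.70. Ccnd2, the D-type cyclin, had 4.81 against 7.07, while the other 16 G1 regulators were within 1 log2 unit. Lipg, an endothelial-type lipase, had 8.20 against 9.66. With Apod it made up the 2 of 18 lipid and retinoid genes past the size, beside 2.59% of all genes. The phosphatase Ptpn22 had 5.95 against 7.89. The guidance genes Sema3a, Sema3d and Sema6d had ratios of -1.38, -1.05 and -1.81, against 1.39 for the semaphorin receptor Plxnd1.

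**Figure D3:**
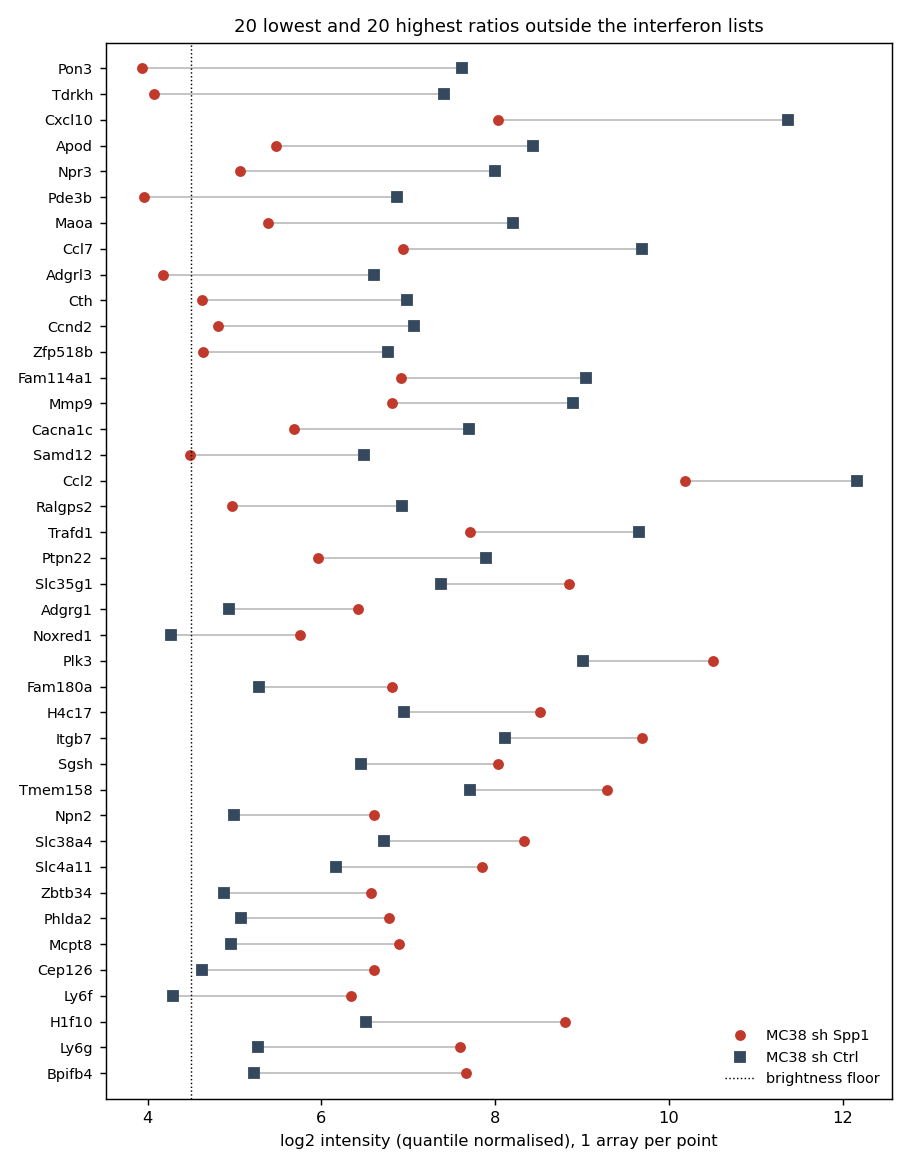
Log2 intensity on the MC38 sh Spp1 array (circles) and the MC38 sh Ctrl array (squares) for the 20 lowest and 20 highest named genes outside the interferon lists, 1 array per point, with the brightness floor dotted. Pon3 lies at 3.93 against 7.62 at the top, and Bpifb4 at 7.67 against 5.22 at the bottom.

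The higher genes reached smaller sizes than the lower ones. Of the named genes past 2 log2 units, 4 were higher. Bpifb4, of a family of lipid-binding secreted proteins, had 7.67 on the sh Spp1 array, against 5.22 on the sh Ctrl array, or 5.44-fold. Ly6g, a surface protein best known as a neutrophil marker, had 7.59 against 5.27, and its relative Ly6f had 6.34 against 4.29, a sh Ctrl level under the floor. Ly6c1 had 7.39 against 6.39, and the other 10 compared Ly6 relatives ran from -0.46 to 0.62. These genes are close copies, and shared signal was not tested. H1f10, a linker histone, had 8.80 against 6.51. The highest ratio of all belonged to the clone-named protein-coding gene 2610008E11Rik, chosen after its value was seen, with 11.26 on the sh Spp1 array, against 7.18 on the sh Ctrl array, or 16.9-fold.

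Single stress and growth-response genes were higher, while most members of their lists did not reach the size. Over all genes, 0.882% were higher by that size and 1.7% were lower. Of 27 p53 targets 2 were higher and 1 was lower, with a median of 0.20. Of 31 genes of the ATF4 and unfolded protein responses 2 were higher, with a median of 0.11, and of 22 NRF2 genes 1 was, with a median of 0.04. With centred arrays these lists had 5, 7 and 2 higher members, where 857 of all 17054 genes were higher. Plk3, a stress-activated polo-like kinase, had 10.51 on the sh Spp1 array, against 9.01 on the sh Ctrl array, and Sesn2, which restrains mTORC1 when amino acids are short, had 8.89 against 7.63. Atf5, a factor of the integrated stress response, had 9.18 against 7.73, and Hmox1, which breaks down haem, had 9.66 against 8.65. Of 25 immediate early genes 2 were higher by the size, with a median of 0.26: Egr1 had 9.17 against 8.06 and Ier2 had 6.93 against 5.87. Fosb, an AP-1 subunit, had 7.32 against 6.23, and Atf3 had 8.03 against 7.12. Genes that ERK signalling induces and that then restrain it, 23 in all, had a median of 0.29 and 0 past the size. Without scaling between arrays 5 of them were higher by that size, where 380 of all 17906 genes were. With centred arrays 6 of them were higher. The list was led by Spry4 at 10.05 against 9.06 and Dusp4 at 9.96 against 9.08, with Etv1 lowest at 7.54 against 8.53.

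Genes of ribosome assembly lay on the higher side as a group. Of 32, 28 were above 0 and the median was 0.35, with 2 past the size, beside a median of 0.02 and 52.5% above 0 over all genes. Relative to all genes the median stayed positive under every scaling tried, between 0.30 and 0.62. The count past the size moved with the scaling, to 6 without scaling between arrays, 10 with centred arrays and 0 with cyclic loess. Over all genes the higher ones numbered 380 of 17906, 857 of 17054 and 133 of 17043 in the same order. Rrp12 had 8.14 on the sh Spp1 array, against 7.10 on the sh Ctrl array, Rrs1 had 8.37 against 7.34, and the RNA polymerase I subunit gene Polr1b had 8.63 against 7.79. Tcof1 and Nol6, nucleolar factors outside the list and chosen after their values were seen, had 9.87 against 8.52 and 9.38 against 8.14. The ribosomal protein genes, by contrast, had a median of 0.00 over 29.

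Single transporter genes were higher. Solute carriers gave 9 higher genes and 1 lower one among 306, or 3.27% past the size, which lies between the 2.59% of all genes and the 4.05% of the smell and pheromone receptors, so nothing is read from the family's share. Slc38a4, an amino acid transporter, had 8.33 on the sh Spp1 array, against 6.72 on the sh Ctrl array, and Slc4a11, a membrane transporter of the bicarbonate transporter family, had 7.85 against 6.16. The creatine transporter gene Slc6a8 had 11.39 against 10.34 and the thiamine transporter gene Slc19a2 had 8.90 against 7.84. Slc39a10, a zinc importer, was the lower one, at 7.35 against 8.83. The imprinted gene Phlda2, which limits placental growth, had 6.78 against 5.07, while the other 15 compared imprinted genes lay between -0.42 and 0.78.

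Of 29 regulators of the mesenchymal state, cadherins and junction genes, 2 were higher by the size and 0 were lower. Over all genes the shares were 0.882% and 1.7%. Jup (plakoglobin) had 9.75 on the sh Spp1 array, against 8.60 on the sh Ctrl array, and the tight junction gene Cldn4 had 6.79 against 5.71. The mesenchymal transcription factor genes Prrx1 and Twist1 had 10.64 against 11.36 and 7.89 against 8.46. The list had a median of 0.05, and its sign relative to all genes turned under other scalings. Itgb7, an integrin beta chain, had 9.69 against 8.12, and Tuba1b, an alpha-tubulin, 8.44 against 7.30, alone past the size among 14 tubulins.

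Several large programmes showed no member past 1 log2 unit after quantile normalisation over the 6 arrays. These were mitosis and G2/M (29 genes), DNA replication (38), ribosomal proteins (29), the respiratory chain (25), hypoxia and glycolysis (25) and heat shock (11). Under other scalings single members passed it, where 857 of all 17054 genes were higher with centred arrays. Hypoxia and glycolysis had 3 higher members with centred arrays, 1 higher and 1 lower without scaling between arrays, and 1 lower with cyclic loess. DNA replication, the respiratory chain and the ribosomal proteins each had 1 higher member with centred arrays, and heat shock had 1 lower with cyclic loess. The mitosis genes had a median of -0.09 with 24 of 29 below 0, but relative to all genes the sign turned in the values as deposited and with centred arrays. Cholesterol and fatty acid synthesis had a median of -0.18 over 25, whose sign relative to all genes turned under those scalings too. Its lowest member Hmgcs1, an early enzyme of the mevalonate path, had 8.97 on the sh Spp1 array, against 9.99 on the sh Ctrl array, and Fasn, the fatty acid synthase, was highest with 10.61 against 9.83.

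**Figure D4:**
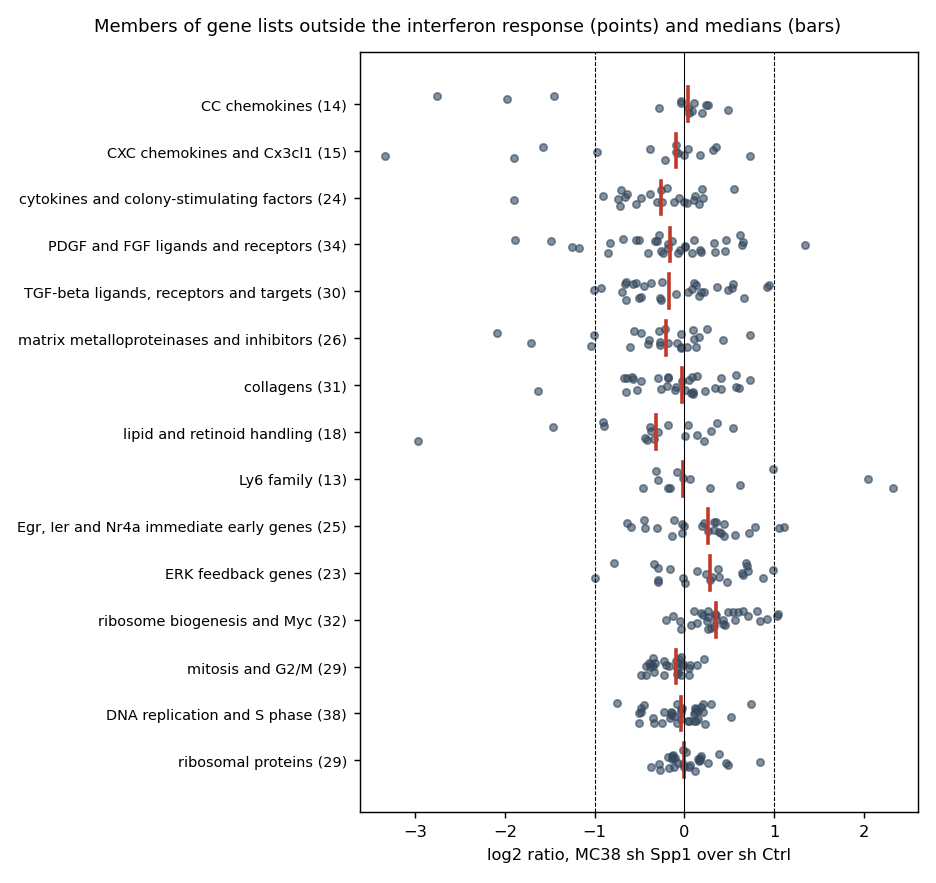
Log2 ratios, MC38 sh Spp1 over sh Ctrl, for 15 lists outside the interferon response (points, 1 gene each, number compared in brackets), with medians as bars and dashed lines at 1 log2 unit. Single chemokine, metalloproteinase and growth factor genes lie far to the left while their list medians stay within 0.35 of 0, and ribosome biogenesis sits to the right with a median of 0.35.

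The other lines were set beside MC38 to ask whether its response differs from theirs. The OAS list had a median log2 ratio of -3.21 in MC38, -0.15 in LLC and 0.75 in AE17, and the GTPases had -2.53, -0.20 and 1.29. Irf7 had -3.68 in MC38, 0.06 in LLC and 1.18 in AE17. Outside the lists, Ccl2 had -1.98, -3.19 and -1.28, so in each line its sh Spp1 level was the lower. Npr3 had -2.93 in MC38, 0.20 in LLC and 0.71 in AE17, and Mmp9 had -2.08, -0.65 and -0.91. H1f10 had 2.29 in MC38, -0.12 in LLC and 3.57 in AE17.

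The difference was tested with limma, with the line as a block and a term for MC38 against the mean of the LLC and AE17 responses, which leaves 1 residual degree of freedom. That degree of freedom comes from the gap between the LLC and AE17 responses and not from MC38 replicates. Each SE below rests on limma's moderated variance. That variance joins the gap with a value drawn from all genes, weighted by 3.271 prior degrees of freedom. It called 0 of 16797 genes (0.0%) at a Benjamini-Hochberg threshold of 0.05, with 0.9995 as the smallest adjusted p. Unadjusted, 214 genes had p under 0.05, and 541 without variance moderation. The genes of smallest p were Ranbp3l, Apol9b, Oas1g, Phf11d, Ifi204 and Irf7. Ranbp3l owed its place to the other lines, with ratios of -4.58 in LLC and -4.24 in AE17 against -0.16 in MC38. For Oas1g the difference was -3.88 ± 0.50 log2 units (SE), for Phf11d -5.92 ± 0.81 and for Irf7 -4.30 ± 0.68, each with an adjusted p of 0.9995. With 1 residual degree of freedom, 0 called genes does not show that the lines respond alike. No gene can thus be called particular to MC38, or shared with the other lines, from this fit.

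**Figure D5:**
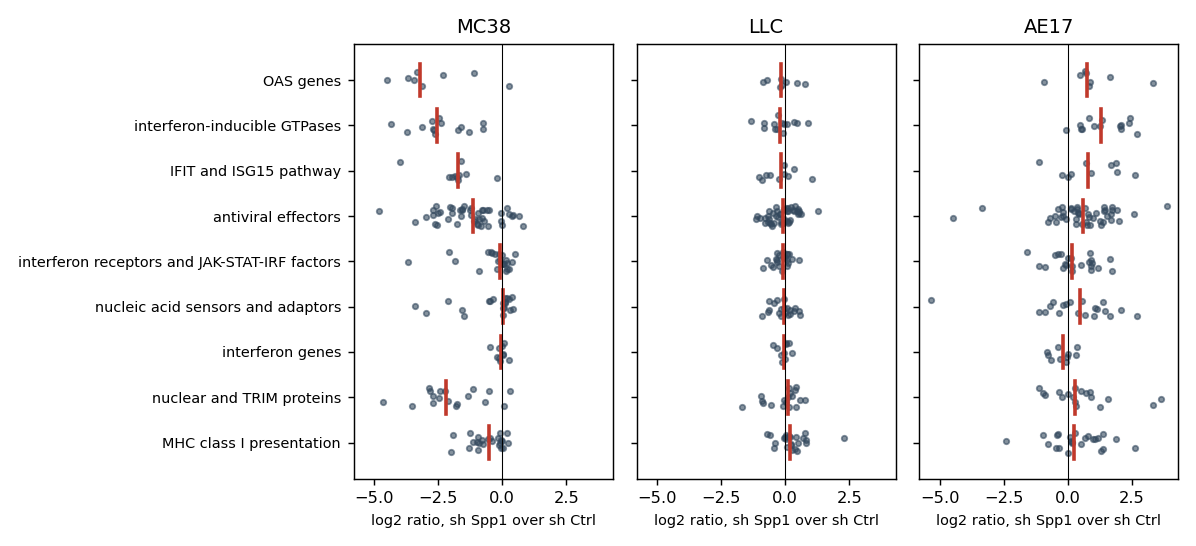
Log2 ratios, sh Spp1 over sh Ctrl, of the members of 9 interferon lists (points, 1 gene each) with list medians (bars) in MC38, LLC and AE17, 2 arrays per line. The OAS median is -3.21 in MC38, -0.15 in LLC and 0.75 in AE17.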

How the data were processed

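The authors deposited 1 table of linear intensity per probe set for all 6 arrays. Per the submitters' processing notes the values come from RMA, and per the labels' design text from GeneSpring GX 12.5. The medians of the deposited intensities differed between arrays, so the values were taken as not normalised between arrays. They were put on the log2 scale and quantile normalised with limma 3.58.1 in R 4.3.3. Genes were named from the 23521 of 41345 probe sets with 1 symbol, the brightest standing for its gene, and not from the 1814 with several or the 16010 with none. Of the named probe sets 23328 matched RefSeq genes of GRCm38.p6, and 12 of 1388 list symbols were matched by synonym. Replicates were not used here, because each group has 1 array.

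The members and lists were chosen with earlier results of these data known. Named by rule were the 20 lowest and 20 highest ratios, the same outside the interferon lists, list members past 1 log2 unit or among the 4 highest and lowest, members of the symbol families, and the 6 genes of smallest p in limma. Clone names, predicted genes, receptors of smell and small RNAs were passed over, except where the text says that a gene was chosen after its value was seen. The same holds for Vim, Cd274, Itgav, Itgb1 and Twist1 and for the further list members given as contrasts. The limma fit was tested on simulated data. Alternatives covered the scaling, the brightness filter, the probe set rule, the size and the variance prior. Figures were drawn with matplotlib 3.10.9.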

Additional observations from a re-analysis of the deposited data

Results flagged for a closer look

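Of the 9 interferon lists, 4 were picked by a rule that asked for a low median in MC38 and a high one in AE17. Their opposite signs were thus set by the choice, with 1 array a side in each line. The nuclear and TRIM list, not picked, had -2.18 in MC38 and 0.29 in AE17. Receptors and signalling factors (-0.10 and 0.17) and MHC class I (-0.51 and 0.22) also had opposite signs. The nucleic acid sensors (0.04 and 0.46) and the interferon genes (-0.06 and -0.18) had the same sign in both lines. The median log2 ratio of the OAS list was -3.21 in MC38 and 0.75 in AE17, and that of the interferon-inducible GTPases was -2.53 and 1.29. For the IFIT and ISG15 pathway the medians were -1.73 in MC38 and 0.79 in AE17, and for the other antiviral effectors -1.16 and 0.60. These differences between lines were not tested for the lists as such, and in the test gene by gene limma called 0 of 16797 genes. In LLC the 4 medians lay between -0.20 and -0.09.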

How the results depend on the processing

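The count of higher genes depended on the scaling. It was 150 after quantile normalisation, 380 without scaling between arrays and 857 when each array was centred on its median. Centring put the median ratio over all genes at 0.26. The lower genes numbered 290, 304 and 206 in the same order. With a size of 2 log2 units the counts were 6 and 66. Quantile normalisation over the 2 MC38 arrays alone gave 142 and 290, cyclic loess 133 and 292, and no brightness filter 165 and 329. Members of the interferon lists lower by at least 1 log2 unit numbered 80 of 172, and between 67 and 82 under the alternatives, and their median relative to all genes was -0.95, and between -1.10 and -0.74. Of 167 named genes past 1 log2 unit, all 167 kept their sign under the scaling and probe set alternatives, and 131 stayed past that size. Relative to all genes, the median of cholesterol and fatty acid synthesis turned to 0.0566 in the values as deposited and 0.0279 with centred arrays, against -0.20, and the cause was not tested. Limma called 0 genes under all 5 alternatives, with 196 to 541 at an unadjusted p under 0.05. Of 13 genes past the size with several probe sets above the floor, 8 had all of them on the same side of 0 and 3 had all past the size, with Ifi35, Gsdmd, Clmp, Coro2a and Dio2 on both sides. No paired analysis was possible because, within MC38, each group has 1 array and the labels give no replicate numbers; the limma fit over the 3 lines had the line as its block. Levels near the floor give sizes that are approximate, and the number of arrays limits every value.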

Other observations

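Clock genes were looked at after their values were seen, as a description. Of 17 compared, 3 were lower by at least 1 log2 unit on the sh Spp1 array and 0 higher, beside 1.7% and 0.882% of all genes. Per3, a period gene, had a log2 intensity of 6.60 on the sh Spp1 array, against 8.14 on the sh Ctrl array. Dbp, an output factor of the clock, had 6.61 against 7.87, its relative Hlf had 6.57 against 7.44, and the repressor Bhlhe41 had 5.59 against 6.86. Cry1 had 7.25 against 6.69. The list's median was -0.11, and its sign relative to all genes turned under other scalings. When each culture was harvested is not given in the sources used here.

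Histone genes, also chosen after their values were seen, gave 3 of 31 higher by at least 1 log2 unit and 0 lower. Over all genes the shares were 0.882% and 1.7%. The list's median was 0.25. Without scaling between arrays 6 were higher and with centred arrays 7, where 380 of all 17906 and 857 of all 17054 genes were. Of 29 above the floor on both arrays 2 were higher. Beside H1f10, the 3 were H4c17, with 8.52 on the sh Spp1 array against 6.96 on the sh Ctrl array, and the macroH2A gene Macroh2a2. Macroh2a2 had 5.12 against 3.91, a sh Ctrl level under the floor. Replication-linked members differed, with H2ac21 at 9.46 against 10.40.

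MicroRNA genes gave 4 higher and 9 lower of 247, or 5.26%, where the quiet smell and pheromone receptors gave 4.05%. The array measures the precursor region and not the mature microRNA. Among predicted genes, Gm7609 had 7.06 on the sh Spp1 array, against 9.78 on the sh Ctrl array.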
